A study of Homo sapiens with 9 samples.

Results

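The baseline described here is the transcriptome of vehicle-treated cultures, 3 of the 9 libraries of an RNA sequencing study, chosen by their label as DMSO and not by any measured value. The labels name A549, a human lung adenocarcinoma line, and the study asked which messenger and long noncoding RNAs accompany ferroptosis, an iron-dependent cell death by lipid peroxidation. The other libraries came from cells given RSL3 at 2 µM, which inactivates the lipid peroxidase GPX4, or RSL3 at 2 µM with the radical trap Fer-1 (ferrostatin-1) at 5 µM, 3 libraries each. All cells grew in DMEM with fetal bovine serum and antibiotics, treatments lasted 24 h, and total RNA was extracted with Trizol. The DMSO cells received the solvent alone and neither compound. The labels do not say whether the 3 DMSO libraries came from separate cultures, so the SD given below measures the spread between these libraries, which may be technical. Since only this group is described, levels are given without tests. Triples of values run from DMSO library 1 to DMSO library 3, and the replicates have no order.

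A549 is used as a model of alveolar type 2 cells, the surfactant-making cells of the lung. As background, the line carries a homozygous deletion on the short arm of chromosome 9 that takes CDKN2A and MTAP, and a KEAP1 mutation. KEAP1 presents the transcription factor NRF2 (NFE2L2) for degradation, and its loss keeps genes for detoxification, thiol redox cycling and NADPH supply switched on, so that aldo-keto reductases and aldehyde dehydrogenases are very abundant in A549. Lung epithelium is marked by keratins, E-cadherin and claudins, and mesenchymal cells by vimentin and N-cadherin.

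The DMSO libraries held 43393109, 40549601 and 42777617 estimated counts over 43444 loci, so a locus without a count could still hold up to 3 counts, or 0.0691, 0.074 and 0.0701 CPM, counts scaled to a common library total (counting error only). Protein-coding loci took 81.4% ± 0.58 of the counts (SD, n = 3), loci of the ribosomal RNA units 6.17% ± 0.26, long noncoding loci 3.74% ± 0.052 and the structured 7SK, 7SL, RMRP and RPPH1 RNA loci 2.4% ± 0.14. A locus was called expressed at an FPKM (fragments scaled for transcript length and library depth) of at least 1 in all 3 libraries, and low at an FPKM under 0.1 in all 3. Of 15410 protein-coding loci, 9152 were expressed (59.4%) and 3009 were low (19.5%), and of 8873 long noncoding loci 800 were expressed (9.02%) and 3416 were low (38.5%). The median coefficient of variation between the 3 libraries was 4.81% over the expressed protein-coding loci and 11.5% over the expressed long noncoding loci. As a check for duplicated libraries, the chi-square between pairs was 10.9 to 11.8 per degree of freedom, so no library was a copy of another and all 3 were kept. This check cannot tell separate cultures from technical repeats.

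The label was checked first, and several genes went against it. CDKN2A (MSTRG.35092; GRCh38 chromosome 9, 21967753 to 21995301), which encodes the cell cycle inhibitors p16 and p14ARF, had 12.2, 12.1 and 12.5 FPKM from 2748, 2529 and 2801 counts. Its neighbour CDKN2B, the p15 inhibitor, had 2.19, 2.69 and 2.52 FPKM. MTAP, the methylthioadenosine salvage enzyme, lies in a joined locus with the antisense RNA CDKN2B-AS1 (chromosome 9, 21802636 to 22128103), which had 2.87, 2.97 and 2.94 FPKM from 11679, 11278 and 11884 counts. All 3 loci were thus expressed in every library, at a level that differed little between them. CDKN2A stood above the median of the expressed protein-coding loci, 4.7 FPKM, but its rank in FPKM is uncertain, as set out below with EGFR. On either side, KLHL9, a ubiquitin ligase adaptor, had 7.603, 7.74 and 7.21 FPKM, and DMRTA1, a transcription factor gene, had 0.543, 0.724 and 0.619 FPKM. The aldo-keto reductase AKR1B10 had 0.121, 0.1404 and 0.112 FPKM, AKR1C1 had 0.158, 0.154 and 0.108 FPKM, and the retinal dehydrogenase ALDH1A1 had no count in any library. Of the 22 listed detoxification enzymes with a locus 12 were expressed (54.5%, beside 59.4% of all protein-coding loci). Among them were NQO1 at 39.5 ± 1.13 FPKM and AKR1B1 at 28.1 ± 0.865 FPKM (SD, n = 3). ALDH3A2 and AKR1C3 had 5.28 ± 0.0775 and 4.59 ± 0.621 FPKM. Since RNA from the stretch that A549 lacks was present, the libraries are called below libraries labelled A549. The cause was not tested, and all values describe the sequenced RNA whatever its source.

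Before the levels, 2 differences between the libraries need stating. Fibroblast genes were lower in DMSO 3. COL1A1, the main chain of type I collagen, had 2143, 2533 and 493 counts, and its partner COL1A2 had 1427, 1672 and 77. COL3A1, a type III collagen chain read in a joined locus, had 517, 620 and 42 counts, and the matrix proteoglycan LUM had 84, 108 and 6. For each of these the DMSO 3 value lay far below the other two. Of 8 fibroblast markers, all with a locus, 7 had their lowest CPM in DMSO 3, and PDGFRA, read in a joined locus, had its lowest in DMSO 2. Their FPKM summed to 12.1, 14.6 and 3.4, and none of the 8 was at 0. In all, 2 were expressed (25%, beside 59.4% of all protein-coding loci), or 4 without DMSO 3. In bulk RNA fewer cells of a type and less RNA per cell cannot be told apart, and the part of such cells in these values was not tested.

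Some genes of blood cells differed in another pattern. The neutrophil proteins S100A8 and S100A9, which together form calprotectin, had 684, 1470 and 1776 counts for S100A8 and 804, 1473 and 2047 counts for S100A9. The defensins DEFA1, DEFA1B and DEFA3, read in 1 joined locus, had 183, 641 and 1106 counts, and lactotransferrin (LTF) had 35, 203 and 232. In these genes DMSO 1 was lowest. ALAS2, the haem synthesis enzyme of red cell precursors, had 73, 60 and 243 counts and was highest in DMSO 3. These blood cell genes were chosen after their values were seen, and the listed blood markers did not share 1 pattern. Of the 5 listed markers with a mean count of at least 10, 3 had their lowest CPM in DMSO 1, 1 in DMSO 2 and 1 in DMSO 3. Of the 10 listed blood markers, all had a locus and 2 were expressed, lysozyme (LYZ) at 1.402, 2.53 and 2.28 FPKM and CD68, whose joined locus with EIF4A1 and SENP3 had 38.4, 37.8 and 36.9 FPKM. HBB had no count, 5 of the 10 were low, and the list summed to 40.7 to 42.1 FPKM, most of it in the CD68 locus. Of 8 endothelial markers 7 had a locus, none was expressed, 4 were low, and they summed to 0.887 to 1.31 FPKM. Over all protein-coding loci 59.4% were expressed and 19.5% were low.

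**Figure D1:**
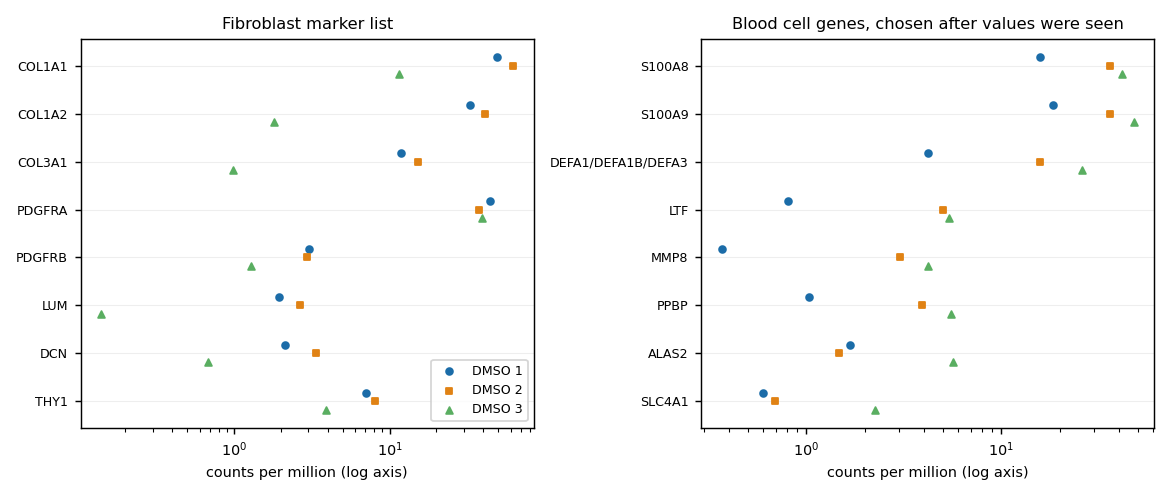
CPM on a log axis for the 8 fibroblast markers (left) and 8 blood cell genes chosen after their values were seen (right), one symbol for each DMSO library. COL1A2 had 1427, 1672 and 77 counts and LTF 35, 203 and 232 counts, so the library that stands apart is DMSO 3 on the left and DMSO 1 for the neutrophil genes on the right.

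Counted over all 11115 protein-coding loci with a mean of at least 50 counts, a rule chosen after the values were seen, 39 loci were at least 3-fold lower in DMSO 3 than in both other libraries and 4 were at least 3-fold higher. For DMSO 1 the counts were 11 lower and 2 higher, and for DMSO 2 they were 5 lower and 1 higher. The 39 loci held 8 of the 25 collagen chain loci with enough counts and 5 of the 8 fibroblast markers, beside the matrix metalloproteinases MMP2 and MMP14 and the bone morphogenetic protein antagonist GREM1, which had 632, 841 and 43 counts. The 11 loci lower in DMSO 1 held MMP8, MMP9, LTF, the platelet chemokine PPBP and the neutrophil protein OLFM4, but 0 of the 10 listed blood markers. Among the 10 expressed coding loci with the largest spread was also EIF2AK2, the double-stranded RNA sensor PKR, with 6742, 2358 and 2428 counts, in which DMSO 1 stood above the others. Across the 9152 expressed protein-coding loci, 154 (1.68%) had a coefficient of variation over 20%. Values below that rest on a gene of this kind are given for each library.

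The most abundant loci were not protein-coding. RN7SK, a small nuclear RNA that holds the elongation factor P-TEFb inactive, had 13626, 13198 and 13480.3 FPKM in a locus joined with AL162581. RN7SL1, the RNA of the signal recognition particle, had 11957, 13341 and 14166 FPKM. RMRP, the RNA of the ribonuclease MRP that processes ribosomal RNA, had 10854, 12677 and 12879 FPKM. RPPH1, the RNA of ribonuclease P, had 4425, 4820.1 and 4974 FPKM in a locus joined with AL355075. For RN7SL1, RMRP and RPPH1, DMSO 1 was the lowest library. The loci of the ribosomal RNA units on chromosome 21 led by counts, and the 10 loci with the most counts together took 8.77, 9.13 and 9.16% of the libraries, the 100 loci with the most counts 20.2% ± 0.21.

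RN7SL4P, a copy of RN7SL1 on another chromosome, had 1345, 1455 and 1476 FPKM. Both are near-identical in sequence, so reads could be given to either locus and their levels are uncertain.

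A second pair of this kind was TMSB4XP8, a processed pseudogene with 314, 344 and 326 FPKM, and its parent TMSB4X, the actin-binding peptide thymosin beta 4, with 272, 284 and 271 FPKM. The 135 bases of the pseudogene (chr4:90838903-90839037 on GRCh38, minus strand; sequences from GENCODE 29) differ from bases 91 to 225 of the TMSB4X transcript (locus chrX:12975105-12978530, plus strand) at 1 position, in capitals, and are shown because the division of reads between the copies turns on it. Reads from that stretch could be given to either locus, so both levels are uncertain.

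TMSB4XP8: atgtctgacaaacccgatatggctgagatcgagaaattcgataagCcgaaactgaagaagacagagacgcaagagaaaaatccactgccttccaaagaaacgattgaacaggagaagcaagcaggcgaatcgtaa
TMSB4X: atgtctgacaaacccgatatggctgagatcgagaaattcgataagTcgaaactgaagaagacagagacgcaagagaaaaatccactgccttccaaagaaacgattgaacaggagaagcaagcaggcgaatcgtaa

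Among protein-coding loci the glycolytic enzyme GAPDH came first, with 1031, 996 and 981 FPKM, and the cytoskeletal actin ACTG1 second, with 787, 774 and 736 FPKM. The cytosolic chaperones HSP90AB1 and HSP90AA1 had 484 ± 0.632 and 334 ± 4.79 FPKM (SD, n = 3), and the translation factor EEF1A1 had 433 ± 13.2 FPKM. In these genes the spread between libraries was small beside the level. The peroxidase PRDX1 had 321, 327 and 330.3 FPKM and ranked above beta actin (ACTB), at 321, 306 and 303 FPKM. The lowest PRDX1 value, 321.0, lay just above the highest ACTB value, 320.5. By counts the order was reversed, with 25075, 23754 and 25593 for PRDX1 and 174254, 154634 and 163429 for ACTB. The order of PRDX1 and ACTB therefore depends on the scale. Further down came the tubulin TUBB, lactate dehydrogenase LDHA at 254 ± 7.15 FPKM, the calcium-binding S100A6 at 234 ± 9.96 FPKM and YAP1, the coactivator of the Hippo pathway, at 189 ± 2.14 FPKM.

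Replication histones, whose messages end in a stem-loop in place of a poly(A) tail, were prominent in FPKM. H2AC18 had 263, 270.5 and 285 FPKM, its near-identical copy H2AC19 had 256, 263 and 279 FPKM, H4C2 had 230.4, 259 and 254 FPKM and H3C2 had 210.3, 234 and 233 FPKM. Of 63 clustered histone genes, read at 60 loci because some share 1, 53 were expressed, beside 59.4% of all protein-coding loci. The median over all 63 was 43.4 FPKM. Copies of these genes share long stretches of sequence, so single values are uncertain. Ribosomal protein genes were expressed at 79 of 80, beside 59.4% of all protein-coding loci, with a median of 41.5 FPKM. They ran from RPS2 at 229.9 ± 4.92 FPKM in a locus joined with small nucleolar RNAs to the muscle paralogue RPL3L at 0.0201 FPKM. For comparison, the median over all protein-coding loci was 2.1 FPKM.

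By counts the order was different, because EGFR, the epidermal growth factor receptor on chromosome 7, 54985575 to 55211628, led the protein-coding loci with 322374, 292646 and 193873 counts, 0.745, 0.724 and 0.455% of the libraries. Its FPKM was 47.1, 45.9 and 28.5, and DMSO 3 was lowest on both scales. Counts and FPKM tie together through a length and a library constant, here read from 885 unstranded loci of 1 transcript each, and for EGFR that length came to 131490 bases, against 9821 for its longest transcript in GENCODE 29. At 6850 of 7211 expressed loci with a single gene name and a known length the implied length was above the longest transcript. The median ratio of the implied length to the longest transcript was 1.56 over all 7211 loci, and at 986 loci (13.7%) it was over 3. For CDKN2A the implied length came to 4323 bases against 1283, and for CDKN2B to 15029 bases against 3911. Levels are compared between genes in FPKM only, but the mismatch does not show that FPKM is the safer scale. Whether the counts or the FPKM are off at such loci was not tested. Ranks in FPKM between genes are therefore uncertain, including those of the histones beside the median of all protein-coding loci.

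**Figure D2:**
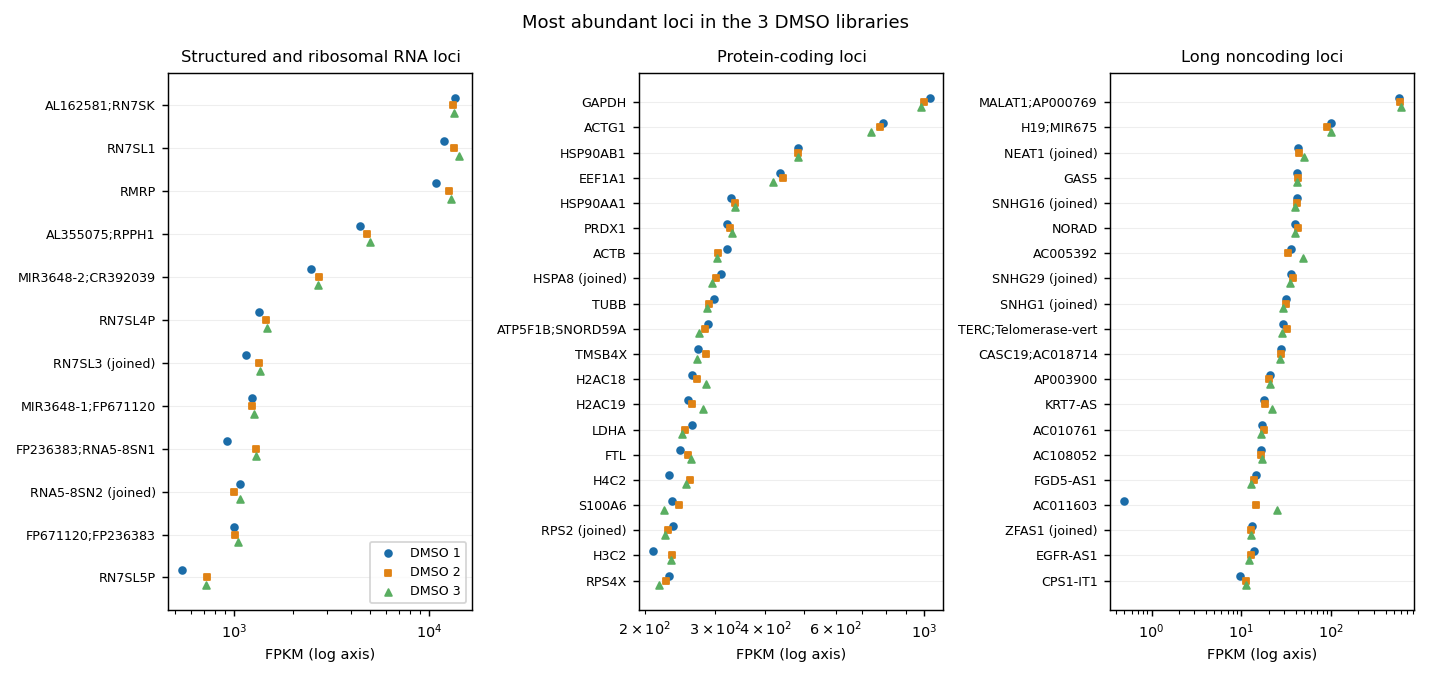
FPKM on a log axis of the most abundant structured and ribosomal RNA loci (left), protein-coding loci (centre) and long noncoding loci (right), one symbol for each DMSO library. RN7SK, RN7SL1 and RMRP lie above 10000 FPKM in all 3 libraries, while GAPDH leads the protein-coding loci at 1031, 996 and 981 FPKM and MALAT1 the long noncoding loci at 567, 577 and 588 FPKM.

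MALAT1, a nuclear speckle RNA, was the most abundant long noncoding locus, with 567, 577 and 588 FPKM and 260102, 246523 and 267501 counts in a locus joined with AP000769. The imprinted RNA H19 followed with 98.9, 89.96 and 99.2 FPKM, and NEAT1, the scaffold of paraspeckles, had 42.4, 43.3 and 49.98 FPKM with DMSO 3 highest. MALAT1 was thus several times above the next long noncoding locus in every library. The snoRNA host GAS5 had 41.8 ± 0.456 FPKM, NORAD, which binds Pumilio proteins, had 40.5 ± 1.79 FPKM, and TERC, the telomerase template RNA, had 29.7 ± 2.18 FPKM in a joined locus, while the catalytic subunit TERT had 0.0925, 0.0791 and 0.0773 FPKM. CASC19, near MYC, had 27.3 ± 0.236 FPKM but 162631, 152126 and 159393 counts. Of 44 listed noncoding genes 43 had a locus, and 29 of the loci joined several names. Of the 43, 32 were expressed (74.4%) and 5 were low, beside 9.02% and 38.5% of all long noncoding loci. With joined loci left out, 4 were expressed. HOTAIR, an RNA of the HOXC cluster, had 0.459, 0.5699 and 0.666 FPKM, or 1.24 on average over all its loci summed, and SFTA1P, a lung surfactant pseudogene transcript, had no count. AC011603 was the least even among the 25 most abundant, with 0.498, 14.5 and 24.9 FPKM.

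Most lung identity genes were low or not expressed. Of 16 alveolar type 2 genes 14 had a locus. Of these, 4 were expressed (28.6%) and 6 were low, beside 59.4% and 19.5% of all protein-coding loci. Among the low genes 4 had no count in any library. The surfactant proteins SFTPB and SFTPC had 0.0394, 0.0828 and 0.0345 FPKM for SFTPB and 0.0404, 0 and 0 FPKM for SFTPC, and SFTPD, the aspartic protease NAPSA, the phosphate transporter SLC34A2 and the pepsinogen PGC had no count. ABCA3, the lipid transporter of lamellar bodies, had 1.04, 0.856 and 0.812 FPKM, around the threshold, and LAMP3, a lamellar body membrane protein, had 0.589, 0.711 and 0.537 FPKM. LPCAT1, an acyltransferase that makes surfactant phosphatidylcholine and is also found outside the lung, was the highest of the list at 16.9, 16.5 and 16.3 FPKM. The other expressed members, MUC1, ETV5 and CLDN18, averaged 3.49, 3.16 and 1.31 FPKM. Summed over all its loci CLDN18 averaged 2.76 FPKM. SCGB3A2 averaged 0.847 FPKM, or 2.28 with all its loci summed. With joined loci left out, 2 genes of the list were expressed. NKX2-1, the transcription factor of lung identity, had 0.0847, 0.0998 and 0.0618 FPKM in a joined locus, and was low.

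Of 9 club and mucous cell genes with a locus none was expressed and all were low, beside 59.4% and 19.5% of all protein-coding loci. Among them were the secretoglobin SCGB1A1, without a count, and the mucins MUC5AC and MUC5B. MUC5AC had 0, 0.00972 and 0 FPKM and MUC5B had 0.007, 0.0108 and 0.00515 FPKM. Of the 7 basal cell genes only the keratin KRT17 was expressed (14.3%, beside 59.4% of all protein-coding loci), at 16.5, 14.9 and 14.2 FPKM. KRT5 had 0, 0.0137 and 0 FPKM, and the basal regulator TP63 had 0.0458, 0.0162 and 0.0291 FPKM. Summed over all its loci TP63 averaged 0.117 FPKM, above the limit for a low gene. None of 6 ciliated and none of 4 neuroendocrine or ionocyte genes with a locus was expressed, beside 59.4% of all protein-coding loci. Of 11 alveolar type 1 genes with a locus 6 were expressed (54.5%, beside 59.4% of all protein-coding loci) and 5 were low. The caveolin CAV1 had 40.03, 40.7 and 35.1 FPKM and CAV2 had 10.99, 11.8 and 10.5 FPKM, both broadly expressed genes, the membrane protein EMP2 had 5.84, 5.41 and 5.61 FPKM and RTKN2 1.30, 1.24 and 1.204 FPKM, whereas the podoplanin PDPN and the water channel AQP5 had 0.0195, 0.0206 and 0 FPKM for PDPN and 0, 0 and 0.0342 FPKM for AQP5. AGER, another marker of that type, shares its locus with PBX2, so its 3.02 to 3.94 FPKM cannot be assigned. Of 20 lung and foregut transcription factors with a locus 5 were expressed (25%, beside 59.4% of all protein-coding loci). They were led by KLF5 at 6.73 ± 0.108 FPKM in a joined locus and GATA6 at 2.73 ± 0.0673 FPKM. FOXA1 had 2.52 ± 0.166 FPKM. HNF4A had 0.0151, 0.00717 and 0 FPKM. SFTPA1, SFTPA2, SOX2, FOXA2, EPCAM and AQP4 were not analysed here.

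The epithelial genes split. KRT18 and KRT8, the paired keratins of simple epithelia, had 160.2, 163 and 155 FPKM for KRT18 and 88.4, 85.1 and 87.2 FPKM for KRT8, KRT7 had 45.5, 44.4 and 45.5 FPKM in a joined locus, and the surface sialoglycoprotein CD24 had 51.5, 55.2 and 55.2 FPKM. The desmosomal cadherin DSG2 had 37.3 ± 0.699 FPKM and desmoplakin (DSP) 15.4 ± 0.438 FPKM. In contrast CDH1, which encodes E-cadherin, had 0.0232, 0.0165 and 0 FPKM from 8, 5 and 0 counts, and the splicing factor ESRP1, the protease inhibitor SPINT1 and the polarity protein CRB3 had no count in any library. KRT19 had 0.3001, 0.542 and 0 FPKM. KRT18, KRT8, KRT7 and both desmosomal genes were thus far above the threshold, while KRT19 was below it and E-cadherin was at or near 0 in all 3 libraries. GRHL2, a regulator of epithelial junction genes, had 0.0104, 0 and 0 FPKM, and ESRP2, the paralogue of ESRP1, had 6.26 ± 0.339 FPKM in a joined locus. In all, 17 of 33 epithelial genes with a locus were expressed (51.5%, beside 59.4% of all protein-coding loci) and 4 were low.

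Mesenchymal genes were expressed at 13 of 16 (81.2%, beside 59.4% of all protein-coding loci), and none was low (19.5% of all protein-coding loci were). The intermediate filament vimentin (VIM) had 137, 137 and 121 FPKM, the receptor kinase AXL had 30.98, 32.1 and 30.4 FPKM and N-cadherin (CDH2) had 15.8, 15.9 and 14.9 FPKM. None of these 3 genes stood far apart in any library. Fibronectin (FN1) had 8.35, 10.2 and 3.48 FPKM and the matrix protein SPARC had 3.52, 5.03 and 0.574 FPKM, both lowest in DMSO 3, as were 7 of the 8 fibroblast markers. The transcription factors ZEB1 and SNAI2 had 2.53 ± 0.143 and 2.95 ± 0.404 FPKM, but ZEB1 averaged 4.33 FPKM, above SNAI2, when all its loci were summed. Fibrillin (FBN1), a microfibril protein named after its values were seen, had 25.5, 25.2 and 23.5 FPKM and did not share the low value in DMSO 3. Of hepatic and plasma protein genes, CPS1, the mitochondrial carbamoyl phosphate synthetase of the urea cycle, had 86.5, 88.95 and 90.8 FPKM. Albumin (ALB) and AFP had no count, and 4 of 19 such genes with a locus were expressed (21.1%, beside 59.4% of all protein-coding loci).

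**Figure D3:**
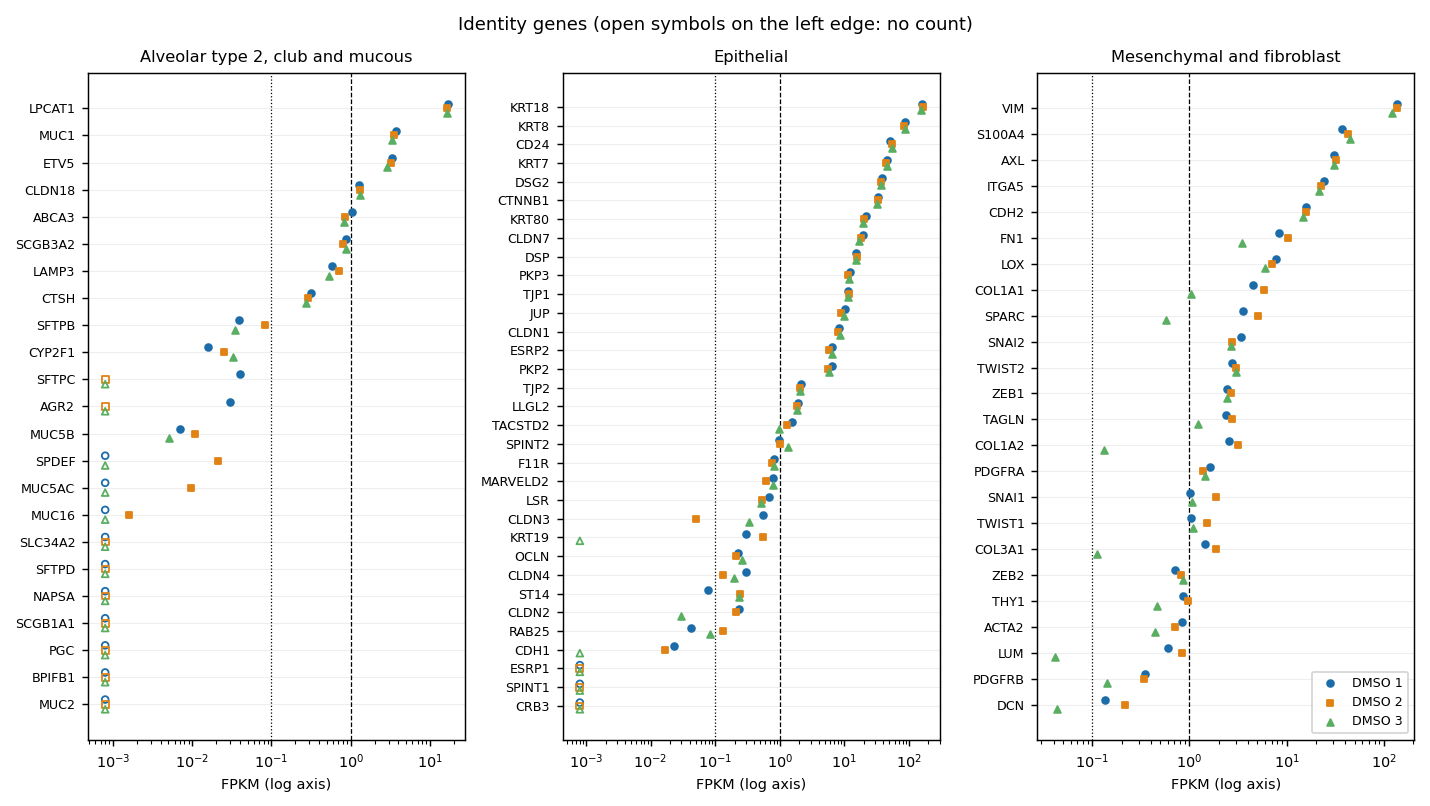
FPKM on a log axis for alveolar type 2, club and mucous genes (left), epithelial genes (centre) and mesenchymal and fibroblast genes (right), with dashed lines at 1 and dotted lines at 0.1. KRT18 had 160.2, 163 and 155 FPKM and VIM 137, 137 and 121 FPKM, whereas CDH1 stayed at or under 0.0232 FPKM.

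The NRF2 pathway itself was expressed. NFE2L2 had 4.87, 4.91 and 5.03 FPKM in a joined locus and its inhibitor KEAP1 10.05, 10.4 and 11.2 FPKM. SQSTM1, the autophagy receptor that binds KEAP1, had 37.8, 37.3 and 36.7 FPKM, and the repressor BACH1 had 2.06, 1.92 and 2.004 FPKM in a joined locus, or 12.9 on average when all its loci were summed. Of 12 regulators 10 were expressed (83.3%, beside 59.4% of all protein-coding loci) and BACH2 was low. Of 62 listed targets 59 had a locus, 45 were expressed (76.3%, beside 59.4% of all protein-coding loci) and 7 were low, with a median of 4.95 FPKM.

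The thiol redox genes had a median of 15.7 FPKM and the NADPH genes one of 18.2 FPKM, above the other NRF2 groups. Thioredoxin (TXN) had 219, 231 and 214 FPKM, its reductase TXNRD1 had 49.3, 50.1 and 49.4 FPKM, and sulfiredoxin (SRXN1), which repairs overoxidised peroxiredoxins, had 21.3, 19.8 and 20.4 FPKM in a joined locus. The cystine carrier subunits SLC3A2 and SLC7A11 had 51.1, 51.1 and 49.8 FPKM for SLC3A2 and 12.7, 12.9 and 13.5 FPKM for SLC7A11. The glutathione synthesis genes were lower, with GCLM at 6.39 ± 0.299 FPKM, GSS at 4.81 ± 0.328 FPKM and GCLC, in a joined locus, at 2.99 ± 0.0843 FPKM. GPX2, a glutathione peroxidase of the gut and a known NRF2 target, had 0.669, 1.098 and 1.01 FPKM. Of the 11 genes of this group 10 were expressed (90.9%, beside 59.4% of all protein-coding loci), GPX2 being the exception. All 6 NADPH genes were expressed, among them PGD and ME1, of the pentose phosphate pathway and of malate oxidation, at 32.3 ± 0.336 and 20.8 ± 0.796 FPKM.

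All 8 iron and haem genes were expressed, beside 59.4% of all protein-coding loci. The ferritin chains FTL and FTH1 had 245, 257 and 261 FPKM for FTL and 208, 211 and 221 FPKM for FTH1, and the haem oxygenase HMOX1 had 5.099, 4.55 and 3.24 FPKM with DMSO 3 lowest. Ferritin therefore ranked among the 25 most abundant protein-coding loci and HMOX1 near the median of the expressed ones. Among export genes the conjugate pumps ABCC2 and ABCC1 had 12.6 ± 0.188 and 9.52 ± 0.0111 FPKM.

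Detoxification genes ranged most widely. NQO1, the quinone reductase, had 38.4, 39.6 and 40.7 FPKM, the glutathione transferase GSTP1 had 28.9, 29.4 and 26.4 FPKM, and the aldose reductase AKR1B1 had 28.3, 28.8 and 27.1 FPKM. These were the highest of the group. AKR1C3, a ketosteroid reductase, had 4.77, 3.903 and 5.11 FPKM, its near-identical paralogues AKR1C2 and AKR1C1 had 0.8403, 0.804 and 0.956 FPKM for AKR1C2 and 0.158, 0.154 and 0.108 FPKM for AKR1C1, and reads that fit several of these paralogues make their values uncertain. AKR1B10 had 12, 13 and 11 counts, and PRDX1 stood 2648, 2325 and 2950-fold above it in FPKM. ALDH3A1, a corneal and stomach aldehyde dehydrogenase, had 0.324, 0.286 and 0.169 FPKM, and the leukotriene hydroxylase CYP4F3 and its relative CYP4F11 were low. Of 22 genes of this group with a locus 12 were expressed (54.5%) and 5 were low, beside 59.4% and 19.5% of all protein-coding loci. Carbonyl reductase CBR3, at 2.77, 1.97 and 0.918 FPKM, missed the threshold through DMSO 3 alone.

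**Figure D4:**
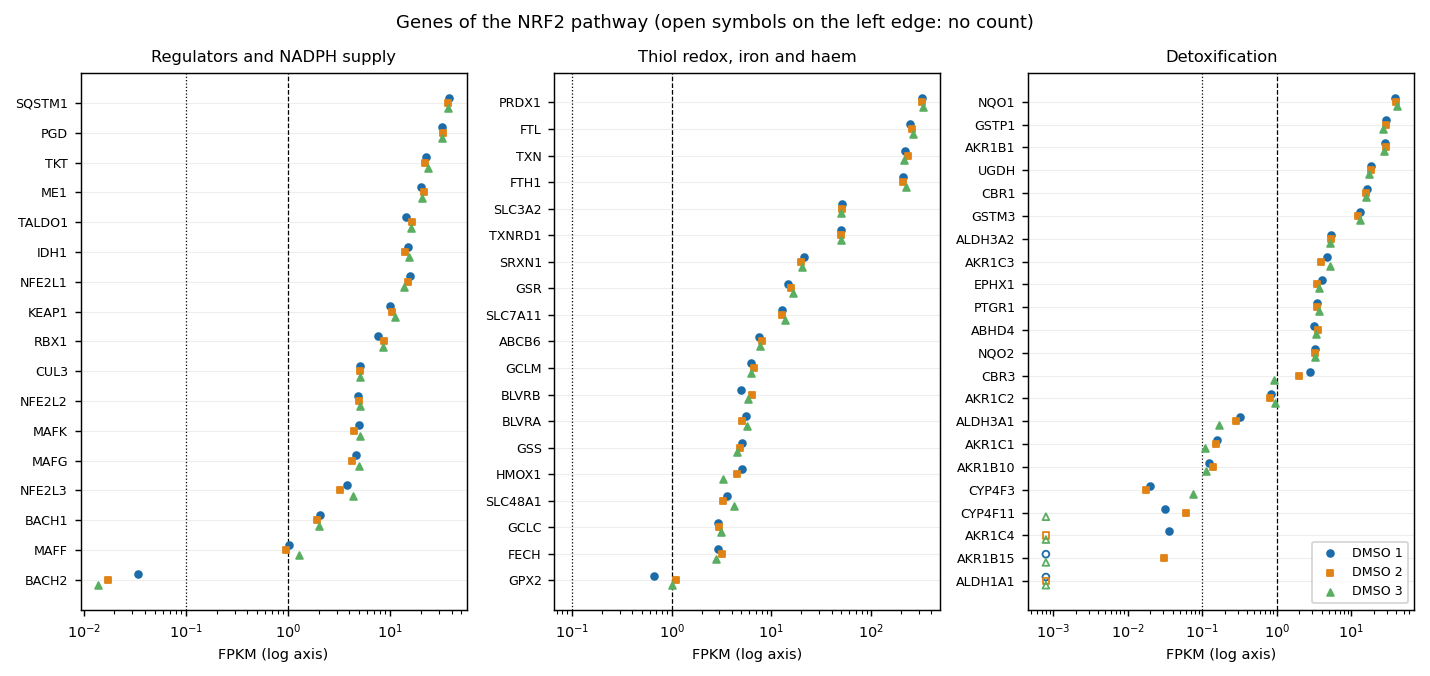
FPKM on a log axis for NRF2 regulators and 5 of the 6 NADPH genes (left), thiol redox, iron and haem genes (centre) and detoxification genes (right), with dashed lines at 1 and dotted lines at 0.1. PRDX1 had 321, 327 and 330.3 FPKM and NQO1 38.4, 39.6 and 40.7 FPKM, while AKR1B10 lay between 0.112 and 0.14 FPKM and ALDH1A1 had no count.

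NRF2 binds the antioxidant response element, whose core was searched as TGACNNNGC on both strands in the RefSeq promoter windows of GRCh38.p14, from 250 bases before to 50 bases after each gene's start. Of 46 target genes with a window, 16 held a match (34.8%), beside 16.1% of 27305 genes with a window. Among the targets, 13 of 34 expressed genes and 2 of 9 not expressed genes held one. The windows of an abundant gene and of one that was not expressed by the threshold are shown because both hold the pattern, with different letters between its fixed ones. TXNRD1, at 49.6 ± 0.453 FPKM, has 2 matches, which start 99 and 8 bases before the start site (chr12:104215529-104215828, plus strand). The first lies on the same strand as the gene and the second on the opposite strand. GPX2, at 0.924 ± 0.226 FPKM, has 1 match, on the opposite strand to the gene (chr14:64942696-64942995, minus strand). Capitals mark the matches, and a match is not shown to be a bound site.

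TXNRD1: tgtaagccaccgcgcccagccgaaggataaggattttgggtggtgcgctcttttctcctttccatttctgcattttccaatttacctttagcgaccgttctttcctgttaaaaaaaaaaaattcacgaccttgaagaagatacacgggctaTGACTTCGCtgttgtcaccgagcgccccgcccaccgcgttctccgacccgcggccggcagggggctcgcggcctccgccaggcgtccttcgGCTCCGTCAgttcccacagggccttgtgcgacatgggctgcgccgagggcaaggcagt
GPX2: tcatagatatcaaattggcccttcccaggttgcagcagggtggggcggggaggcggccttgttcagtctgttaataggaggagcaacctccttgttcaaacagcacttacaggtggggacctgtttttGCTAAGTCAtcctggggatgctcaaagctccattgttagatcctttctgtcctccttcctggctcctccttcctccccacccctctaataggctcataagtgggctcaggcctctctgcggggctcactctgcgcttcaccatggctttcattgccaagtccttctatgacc

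Secreted factors were led by growth and matrix genes more than by cytokines. The mitogen HDGF had 45.1, 42.4 and 41.4 FPKM in a joined locus, the matricellular protein CCN1, a target of YAP1, had 30.6, 31.4 and 32.4 FPKM, and the glycoprotein hormone STC2 had 13.3, 13.8 and 11.6 FPKM. The noncanonical ligand WNT5A had 11.4 ± 0.157 FPKM, the guidance factor SEMA3C 12.2 ± 0.125 FPKM, and FGF2, in a joined locus, 9.95 ± 0.312 FPKM. Of the EGFR ligands, epiregulin (EREG) and TGFA had 7.36, 6.71 and 6.86 FPKM for EREG and 5.18, 5.23 and 5.62 FPKM for TGFA and EPGN had 3.38, 3.42 and 3.396 FPKM, against 0.364, 0.339 and 0.254 FPKM for AREG, 0.807, 0.802 and 0.761 FPKM for HBEGF and 0.0392, 0.0577 and 0 FPKM for EGF. EREG and TGFA were therefore the highest ligands of this receptor, above HBEGF and AREG in every library. Of 50 growth factor genes with a locus 24 were expressed (48%) and 8 were low, beside 59.4% and 19.5% of all protein-coding loci. The matrix growth factor CCN2 had 8.08, 7.25 and 6.08 FPKM, TGFB1 7.02, 7.08 and 7.73 FPKM and the vessel factor VEGFA 3.04, 2.78 and 2.97 FPKM.

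Cytokines were few. IL18, an inflammasome-processed cytokine, had 16.5, 17.03 and 18.2 FPKM, MIF had 9.05, 8.02 and 8.79 FPKM in a joined locus and LIF had 4.57, 4.26 and 3.74 FPKM. IL11 and CXCL8 had 2.68, 2.24 and 2.53 FPKM for IL11 and 1.63, 1.01 and 1.26 FPKM for CXCL8, and the stress cytokine GDF15 had 1.22, 1.61 and 0.678 FPKM. IL6 had 0.192, 0.218 and 0.437 FPKM, and TNF, IL33, CSF2 and IFNL1 had no count in any library. Of 38 cytokine and chemokine genes with a locus 7 were expressed (18.4%) and 14 were low, beside 59.4% and 19.5% of all protein-coding loci.

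Of 27 protease and inhibitor genes with a locus 16 were expressed (59.3%, beside 59.4% of all protein-coding loci) and 3 were low. The lysosomal protease CTSL had 35.6, 36.7 and 36.4 FPKM, the serpin SERPINB5 (maspin) had 34.5, 32.9 and 33.6 FPKM and the metalloproteinase inhibitor TIMP1 had 25.3, 24.7 and 26.8 FPKM. The plasminogen activator PLAU had 0.159, 0.284 and 0.0563 FPKM. MMP1, MMP2 and MMP14 had 2.09, 2.13 and 0.767 FPKM for MMP1, 0.427, 0.5297 and 0.0495 FPKM for MMP2 and 1.42, 1.74 and 0.174 FPKM for MMP14, lowest in DMSO 3, and MMP9 had 0.339, 1.91 and 1.87 FPKM, lowest in DMSO 1. No metalloproteinase named here was expressed in all 3 libraries.

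Matrix and complement genes were expressed at 26 of 35 (74.3%, beside 59.4% of all protein-coding loci). The complement decay factor CD55 had 73.01, 75.1 and 73.6 FPKM, the laminin chain LAMC1 had 33.8, 33.5 and 32.1 FPKM, and the growth factor-binding IGFBP7 had 30.6, 32.9 and 29.8 FPKM. COL12A1 and COL5A1, collagens of the fibril surface and of fibril nucleation, had 28.6, 28.1 and 27.03 FPKM for COL12A1 and 21.1, 20.1 and 19.97 FPKM for COL5A1 and did not share the drop of COL1A1. IGFBP4 did, at 6.84, 10.5 and 0.9495 FPKM, as did COL6A1 at 1.95, 2.402 and 0.167 FPKM. Thrombospondin (THBS1) had 19.4, 21.5 and 16.3 FPKM in a joined locus.

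Among receptor tyrosine kinases, after EGFR, AXL and EPHA2, an ephrin receptor with 25.03, 24.01 and 25.2 FPKM, came the hepatocyte growth factor receptor MET with 18.7, 17.9 and 18.05 FPKM and ERBB3, in a joined locus, with 10.8, 10.9 and 11.1 FPKM. ERBB2 had 2.61, 2.47 and 2.75 FPKM in a joined locus, and ERBB4 had 0.0209, 0.0404 and 0.0181 FPKM, or 0.156 on average over all its loci summed. RET had no count, and KIT and ALK had 0.0482, 0 and 0.0183 FPKM for KIT and 0, 0.0222 and 0 FPKM for ALK. HGF, the ligand of MET, had 0.0644, 0.0796 and 0.0206 FPKM. Of 36 receptor tyrosine kinases with a locus 19 were expressed (52.8%) and 9 were low, beside 59.4% and 19.5% of all protein-coding loci.

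Receptors of the gp130 family were among the highest cytokine receptors. LIFR had 38.04, 39.2 and 36.01 FPKM in a locus joined with MIR3650, the shared subunit IL6ST (gp130) had 19.7, 19.5 and 19.6 FPKM and the oncostatin M receptor OSMR had 17.6, 18.2 and 18.6 FPKM. The interleukin-6 receptor chain IL6R had 1.58, 1.34 and 1.47 FPKM, or 2.1996 on average over all its loci summed. Among death and tumour necrosis factor receptors, TNFRSF12A, the TWEAK receptor, had 38.4, 33.9 and 38.8 FPKM, TNFRSF10B, a TRAIL receptor, had 23.3, 22.3 and 21.98 FPKM, and TNFRSF1A had 20.5, 18.5 and 19.3 FPKM. CD40 had no count. Of 29 genes 21 were expressed (72.4%) and 2 were low, beside 59.4% and 19.5% of all protein-coding loci. NOTCH2 led the TGF-beta, WNT and NOTCH receptors at 16.2 ± 0.493 FPKM. The transforming growth factor receptors TGFBR1 and TGFBR2 followed at 14.6 ± 0.281 and 12.2 ± 0.587 FPKM. Of the 29 listed receptors of these pathways 23 were expressed (79.3%, beside 59.4% of all protein-coding loci).

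Of 32 G protein-coupled receptors with a locus 16 were expressed (50%, beside 59.4% of all protein-coding loci). The retinoid-induced orphan GPRC5A had 22.1, 21.4 and 21.4 FPKM in a joined locus, and the chemokine receptor CXCR4 had 9.14, 9.104 and 9.33 FPKM, while its ligand CXCL12 had 0.225, 0.255 and 0.0462 FPKM, lowest in DMSO 3. Of 27 nuclear receptors 18 were expressed (66.7%, beside 59.4% of all protein-coding loci). The orphan receptors NR2F6, in a joined locus, and ESRRA had 8.29 ± 0.161 and 8.12 ± 0.357 FPKM, and AHR and the glucocorticoid receptor NR3C1, both in joined loci, had 7.43 ± 0.409 and 5.88 ± 0.236 FPKM. Summed over all its loci NR3C1 averaged 9.59 FPKM, above ESRRA. The progesterone receptor PGR had 2.496, 2.81 and 3.21 FPKM and was expressed, and the oestrogen receptor ESR1 had 0.0854, 0.0789 and 0.0971 FPKM and was low.

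**Figure D5:**
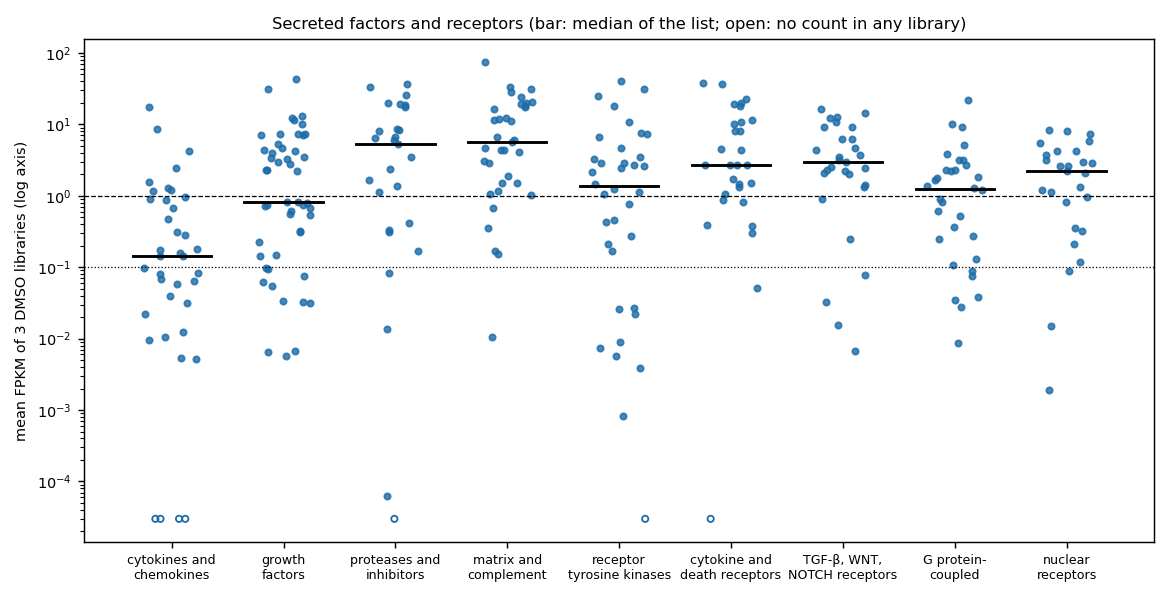
Mean FPKM of the 3 DMSO libraries on a log axis for every listed secreted factor and receptor with a locus, one point for each gene, bars at the list medians, a dashed line at 1 and a dotted line at 0.1. The medians ran from 0.146 FPKM for cytokines and chemokines to 5.67 FPKM for matrix and complement genes.

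Class I antigen presentation genes were expressed, and the listed class II genes were not. B2M, the light chain of class I molecules, had 74.3, 72.1 and 71.6 FPKM, HLA-E had 8.87, 10.3 and 10.4 FPKM, and the joined locus of HLA-B with HLA-C had 6.55, 8.78 and 8.77 FPKM. HLA-DRA, a class II chain, had 0.136, 0.537 and 0.654 FPKM, and the class II activator CIITA had 0.285, 0.224 and 0.211 FPKM in a joined locus. The adenosine-producing ectoenzyme NT5E (CD73) had 40.5, 38.7 and 36.2 FPKM and the checkpoint ligand CD274 (PD-L1) had 0.8202, 0.616 and 0.484 FPKM. Of sensors, CGAS and STING1, of the cytosolic DNA pathway, had 4.31, 4.63 and 4.75 FPKM for CGAS and 2.38, 2.83 and 1.75 FPKM for STING1, and TLR3 had 0.00775, 0.0116 and 0.0101 FPKM. CGAS averaged 7.83 FPKM over all its loci summed. The coxsackievirus and adenovirus receptor CXADR had 12.2, 12.5 and 12.1 FPKM and the complement regulator CD46, a measles virus receptor, 33.04, 32.4 and 33.3 FPKM.

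Of 23 listed lung cancer driver genes with a locus 20 were expressed (86.96%, beside 59.4% of all protein-coding loci). Cyclin D1 (CCND1) and its kinases CDK6 and CDK4 had 66.9, 66.6 and 64.3 FPKM for CCND1, 45.3, 47.9 and 44.6 FPKM for CDK6 and 33.8, 31.2 and 31.98 FPKM for CDK4, beside the expressed inhibitor CDKN2A, and RB1, their substrate, had 9.66, 9.38 and 9.33 FPKM. MYC had 22.6, 21.9 and 21.8 FPKM, and the cyclin-dependent kinase inhibitor CDKN1A (p21) had 6.32, 6.86 and 3.77 FPKM with DMSO 3 lowest. STK11, the LKB1 kinase, had 0.341, 0.417 and 0.3496 FPKM and was not expressed by the threshold.

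Of the genes that the treatments of the study bear on, GPX4, the target of RSL3, had 3.95, 4.46 and 4.02 FPKM, against 103, 104 and 102 FPKM for the cytosolic peroxidase GPX1. The transferrin receptor TFRC had 101, 102 and 98.1 FPKM and NCOA4, which delivers ferritin to autophagy, 35.9, 35.2 and 32.4 FPKM. ACSL4, which loads polyunsaturated fatty acids into membrane lipids, had 8.85, 9.23 and 9.02 FPKM in a joined locus, AIFM2 (FSP1) had 2.07, 2.14 and 2.09 FPKM and GCH1, which makes the antioxidant tetrahydrobiopterin, had 3.82, 4.56 and 4.31 FPKM. The iron exporter SLC40A1 had 0.138, 0.1699 and 0.172 FPKM and the lipoxygenase ALOX15 had no count. Of 23 ferroptosis and selenoprotein genes 16 were expressed (69.6%) and 2 were low, beside 59.4% and 19.5% of all protein-coding loci. TFRC and both ferritin chains, for iron uptake and storage, thus lay far above SLC40A1 in all 3 libraries.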

How the data were processed

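RNA sequencing of 3 DMSO libraries was described from 1 deposited table of 43444 loci. Per the file headers, the authors gave each locus an FPKM, scaled for length and depth, and a count, here called an estimated count because no source says how reads were tallied; the deposited counts were already whole. Per the submitters' processing notes, cutadapt 1.9 and FastQC were run and the build was GRCh38. Not given in the sources used here are the aligner, the assembler, the counting program and the strandedness, so overlapping and antisense loci cannot be told apart. Loci without a name (1496) held 0.523 to 0.546% of the counts, and 2501 loci joined several names and held 32.3 to 32.9%; a gene in such a locus has the value of the whole locus.

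The gene members, their 35 lists (769 genes, of which 46 had no locus used here) and the rules were chosen with earlier results of these data known. A gene was read at the locus with the most counts that carries its name. Ribosomal RNA unit loci were called by name first, then protein-coding loci by transcript type, then structured RNA loci by name. Loci without a transcript type were set aside, and long noncoding loci were called next. Named were list members, the 25 protein-coding and 25 long noncoding loci highest in FPKM, the 10 with the most counts, ribosomal protein genes, neighbours of CDKN2A, and the 10 expressed coding loci with the largest spread; replication histones, RN7SL4P, TMSB4XP8, FBN1 and the blood cell genes were added after their values were seen. Depth was 40549601 to 43393109 counts. The spread estimate was tested on simulated data. Python 3.11.15, pandas 2.3.3, scipy 1.17.1, edgeR 4.0.16 (TMM factors) and GENCODE 29 were used. No comparison between groups was made. Alternatives changed the FPKM threshold, used TPM, left out joined loci or single libraries, summed loci and used TMM factors. Values of some listed genes are not reported here.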

Additional observations from a re-analysis of the deposited data

How the results depend on the processing

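No paired analysis was possible because every result describes 1 group and comes from no test. The count of expressed protein-coding loci, 9152, stayed within 1.5-fold under every alternative run. The count of expressed long noncoding loci, 800, became 1625 at an FPKM of at least 0.5 and 2988 at a TPM of at least 1. Both are lower thresholds by construction. An FPKM of 1 equals 5.87, 5.71 and 5.7 TPM in DMSO 1, DMSO 2 and DMSO 3. The 100 loci with the most counts held 20.2% of the counts, and the 100 loci with the highest FPKM held 41.4% of the summed FPKM. With the ribosomal RNA unit loci left out, the 100 loci with the most counts held 15.4%, an alternative chosen after seeing the data. The median spread between libraries of 4.81% became 13.9% over all loci with a mean count of at least 10 and hardly moved with TMM factors. The 423 expressed list members became 473 at an FPKM of 0.5, 525 at a TPM of 1, and 295 with joined loci left out, a second alternative added after seeing the data. Of the 35 lists, the count of expressed members moved by over 1.5-fold in 5 at an FPKM of 0.5, in 7 at a TPM of 1, in 11 with joined loci left out and in 1, the fibroblast markers, without DMSO 3. The alveolar type 2 list had 7 expressed members at an FPKM of 0.5 and 8 at a TPM of 1, against 4. A gene's FPKM summed over all its loci moved by more than the SD for 106 of 723 genes. Depth limits only genes at or near 0 counts, for which up to 3 counts cannot be told from none.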
